A study of Mus musculus with 12 samples.

Results

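The treatment response of splenic dendritic cells (DCs) was compared between mice with and without functional NIK, gene by gene, as (aly treated minus aly untreated) minus (WT treated minus WT untreated). This difference of differences, the interaction, was read over all 12 arrays of the series, 3 in each of 4 groups, and again over 11 arrays without treated aly replicate 1. Alymphoplasia (aly) mice carry a mutation of Map3k14, the gene of the kinase NIK, in every cell, and their heterozygous littermates served as wild type (WT). Mice of both genotypes were left untreated or were injected into the peritoneum with 25 micrograms of LPS together with 100 micrograms of an agonistic antibody against CD40, and DCs were collected 6 hours later. Spleen DCs from 3 mice were pooled for each array after enrichment with CD11c beads and a flow sort. As LPS and the antibody were given together, their effects cannot be told apart, nor can an effect of the mutation inside DCs be told apart from one in other cells of the mouse. Since each array holds pooled mice, the p-values reflect differences among pools. In such pooled samples, fewer cells of a type and less RNA per cell cannot be told apart.

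NIK is the kinase that starts the alternative NF-kB pathway: it leads to processing of the NF-kB2 precursor and so frees dimers of p52 and RelB. CD40 and other receptors of the TNF receptor family stabilise NIK, whereas LPS acts on Toll-like receptor 4 and drives the classical NF-kB pathway and type I interferon. DC maturation joins both inputs in costimulatory molecules, cytokines and receptors for migration to T cell zones.

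Every array had been scaled to the same trimmed mean of 150.001. Treated aly replicate 1 stood apart, with control probe sets for Actb and Gapdh reading 5.66 log2 units higher at the 3′ than at the 5′ end (1.37 to 3.11 on the other arrays) and hybridisation controls of 28530 (2458 to 5768 elsewhere). This 3′ excess, a sign of RNA or amplification quality, was 1.58 ± 0.17 in untreated WT, 1.56 ± 0.24 in treated WT, 2.50 ± 0.19 in untreated aly and 3.65 ± 1.81 in treated aly samples (mean ± SD, n = 3). It thus moved with genotype. A split balanced over the groups, which the labels do not name, appeared in the poly-A controls: they were at 4.15 to 21.8 in the samples numbered 1 and at 52.9 to 497 in all others. The pan-DC markers Itgax, Flt3 and Zbtb46 were measured in all groups, with Itgax at means of 2780 and 1089 in WT and 2110 and 1340 in aly before and after treatment. Markers of red pulp macrophages, a cell type that CD11c beads can carry along, were higher in aly. Their 13 measured genes summed to 4180 to 20300 in untreated WT and 2560 to 15900 in treated WT, against 46000 to 75700 and 33100 to 60900 in aly. Of them, 7 were called higher in untreated aly samples (0.499% of genes tested) and 6 in treated ones (2.74%), and by limma 0 were called in the interaction. Marginal zone macrophage markers (4 measured) summed to 122 to 681 in untreated and 583 to 6070 in treated WT. In aly they summed to 1750 to 3500 and 5270 to 31700. Neutrophil markers (7 measured) summed to 14900 on treated aly replicate 1. They reached at most 3090 in untreated aly and 1130 in treated WT. B cell marker sums overlapped between genotypes before and after treatment. The part of these cells in the results below was not tested.

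The interaction was called for 23 of 15019 genes (0.153%) by limma with Benjamini-Hochberg adjustment, at adjusted p under 0.05. All 23 responded less in aly. In the other direction 0 genes were called, although 537 had an unadjusted p under 0.05 (667 in the lower direction). Other fits did call genes in that direction: 103 of 360 with array weights and 9 of 76 with the Actb 3′ over 5′ ratio as a covariate. Without treated aly replicate 1 the count was 113 (0.752%), with 96 lower (0.639%) and 17 higher (0.113%), and it held all 23. All 23 genes were called as rises in WT (4.95% of genes tested), and Il2ra and Fas were also called as rises in aly (0.453%). The median interaction of the 23 was -3.53 on the log2 scale, with a range of -5.00 to -2.57. Their median share of the WT log2 change kept in aly was 14.4%, with a range of -31.7% to 45.8%. In treated DCs 21 of the 23 were called lower in aly than in WT (2.64% of genes), and all 3 treated aly arrays lay below all 3 treated WT arrays for 23 of 23 (10.1% of all genes). The 23 were chosen by an interaction that uses these arrays, so these counts and the WT rises give it no separate support. In untreated DCs 19 of the 23 read higher in aly than in WT, with a median difference of 0.50, against -2.86 in treated DCs. The interaction therefore came mostly from the treated samples. The exceptions were Ccl22 and Rragd, where the untreated difference was the larger part.

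**Figure D1:**
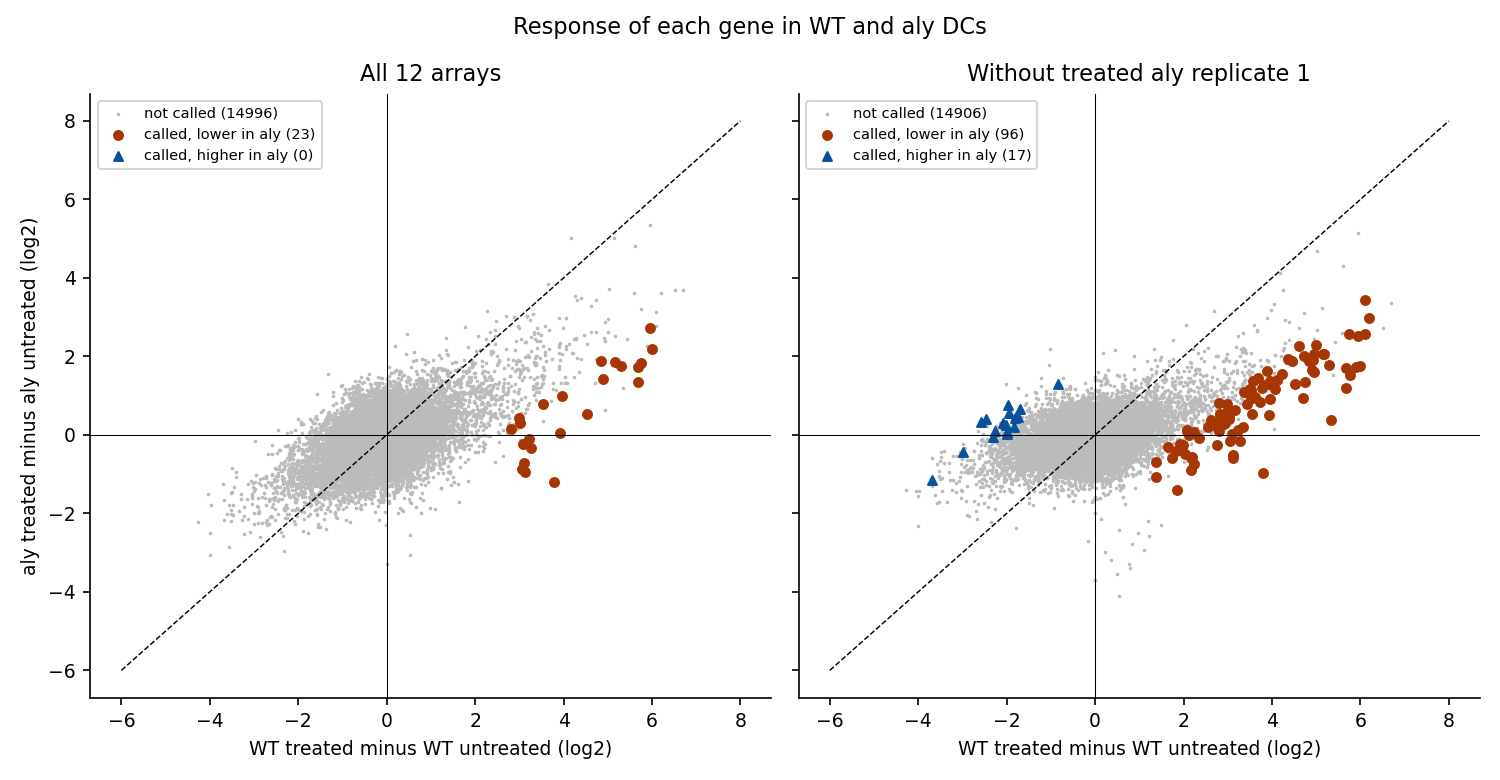
Log2 change with treatment in WT (horizontal axis) against that in aly (vertical axis) for each of 15019 genes, with all 12 arrays (left) and without treated aly replicate 1 (right). Red circles are genes called with a smaller response in aly (23 and 96), blue triangles those called higher (0 and 17), grey dots all others, and the dashed line marks equal responses. The called genes at left lie right of the vertical zero line and below the dashed line.

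Interleukin 15 and its receptor chain were among the called genes. Il15 encodes a cytokine that DCs present to natural killer cells and memory T cells. Its intensity was 152, 74.9 and 92.8 in untreated and 1145, 1075 and 1178 in treated WT, against 138, 111 and 166 in untreated and 77.8, 111 and 131 in treated aly (arrays in the order of replicates 1 to 3). All treated WT arrays stood far above the other 9, which overlapped. The response was 3.28 ± 0.35 log2 units in WT (± is the standard error of the fit from here on, n = 3 arrays a group) and -0.34 ± 0.35 in aly. The interaction was -3.61 ± 0.50 (95% interval -4.67 to -2.56, adjusted p = 0.011). With treated aly replicate 1 left out it was -3.43.

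Il15ra, the chain that holds interleukin 15 at the DC surface, read 32.7, 24.2 and 43.4 in untreated and 1081, 998 and 1270 in treated WT. In aly it read 31.2, 29.7 and 46.2 untreated and 9.0, 72.6 and 164 treated, so that the treated aly arrays spread around the untreated ones and all lay below treated WT. The interaction was -4.01 ± 0.75 (-5.59 to -2.42, adjusted p = 0.046). Leaving out the lowest of the 3, replicate 1, gave -3.23. Its other probe set gave -1.68.

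Prnp, which encodes the cellular prion protein, had the lowest interaction. It read 492, 290.0 and 249 untreated and 3769, 4846 and 5952 treated in WT, against 1081, 760.3 and 1457 untreated and 323, 581 and 493 treated in aly. WT rose and aly read lower after treatment than before on all 3 arrays. The interaction was -5.00 ± 0.56 (-6.17 to -3.82, adjusted p = 0.0017), and it was the 1 gene called on leaving out any of the 12 arrays. The fall in aly was not called (-1.20 ± 0.39, adjusted p = 0.27). The other Prnp probe set showed no fall in aly, with 3.885 in WT, 0.498 in aly and an interaction of -3.388. On the probe set used, untreated aly DCs read 1.64 log2 units higher than WT (adjusted p = 0.081), which adds to the interaction.

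Gbp2, an interferon-induced GTPase that attacks vacuoles of microbes, rose from 218, 206 and 227 to 11814, 11529 and 12588 in WT. In aly it read 527, 354 and 967 before and 1955, 1373 and 2564 after treatment. The 4 groups did not overlap, and treated aly lay between untreated aly and treated WT. Its response of 1.72 ± 0.39 in aly was not called (adjusted p = 0.069) against 5.68 ± 0.39 in WT, and 30.3% of the WT log2 change was kept (95% interval 15.6 to 46.3). The interaction of -3.96 ± 0.55 had an adjusted p of 0.011. A second bright Gbp2 probe set read 4.59 in WT and 3.06 in aly, an interaction of -1.54, so the size of the difference depends on the probe set.

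**Figure D2:**
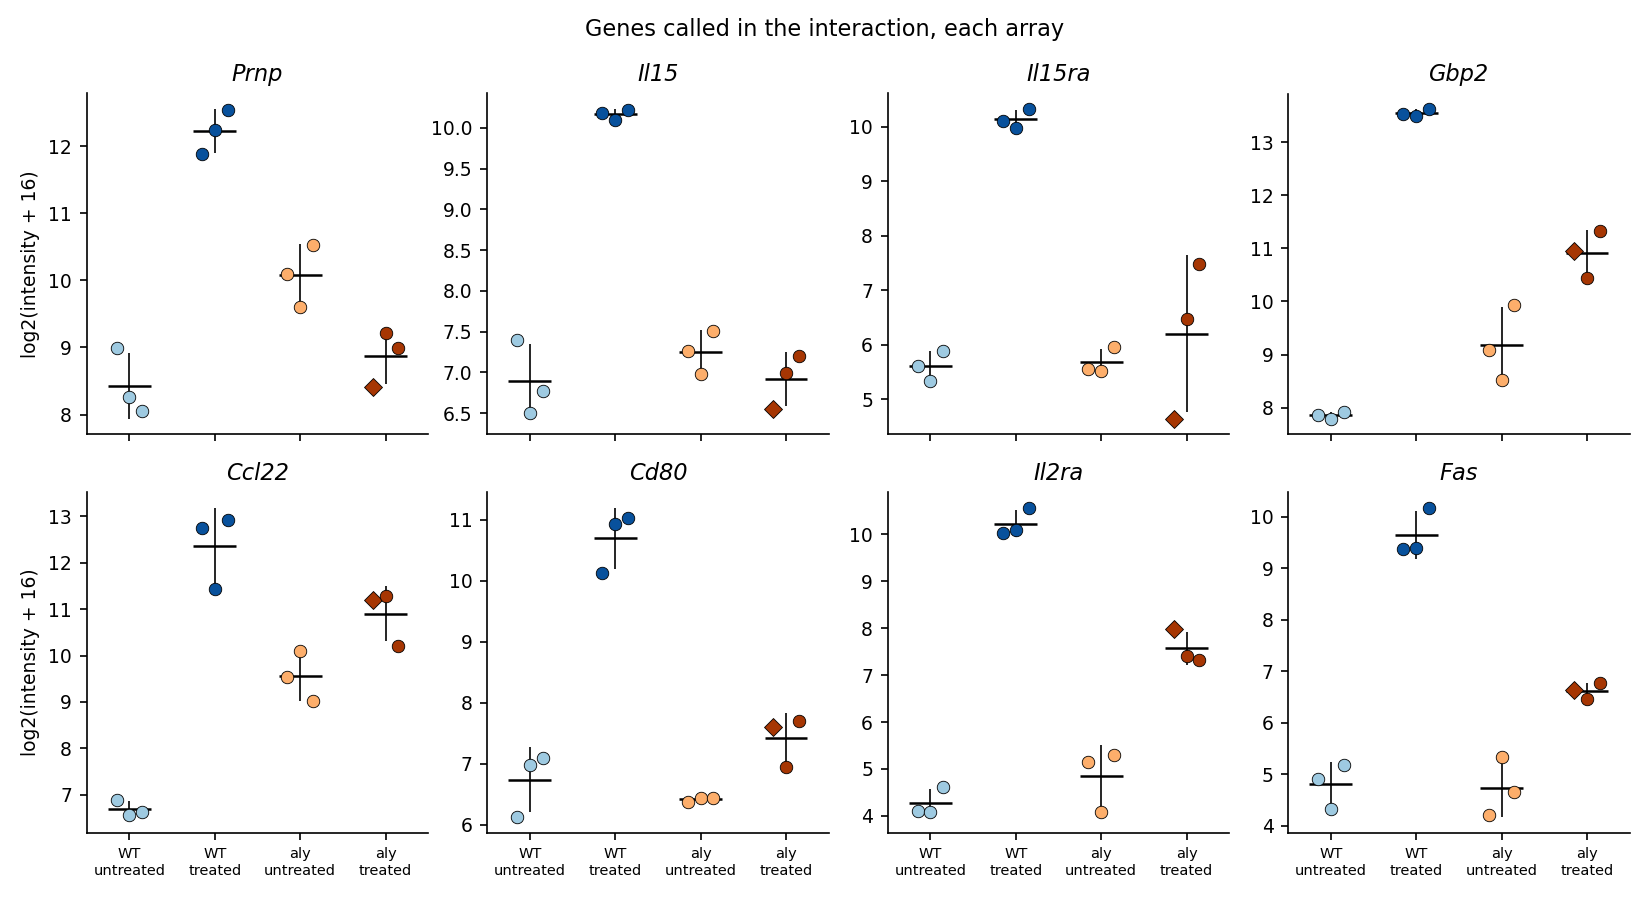
Log2(intensity + 16) on each array for 8 genes called in the interaction, by group (horizontal axis). Points are arrays, bars the mean and lines 1 SD (n = 3), and the diamond is treated aly replicate 1. In every panel the 3 treated WT arrays are the highest, and the 3 treated aly arrays lie below them.

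Among ligands, Ccl22, a chemokine that attracts T cells bearing CCR4, rose in WT from 103, 78.2 and 82.7 to 6908, 2741 and 7749. In aly it read 731, 1086 and 502 before and 2350, 2462 and 1172 after treatment. Untreated aly arrays lay above all untreated WT arrays, and treated aly arrays below all treated WT arrays. The interaction was -4.34 ± 0.64 (-5.69 to -2.98, adjusted p = 0.011). It is the sum of a called difference of 2.87 in untreated DCs (adjusted p = 0.019) and one of -1.47 in treated DCs (adjusted p = 0.069). Among the 23 genes only Ccl22 was called higher in untreated aly (0.499% of genes tested). Rragd, a GTPase of nutrient signalling to mTORC1, had the same form, with 1.98 untreated, -1.49 treated and an interaction of -3.47 ± 0.62 (adjusted p = 0.046). Cxcl11, a ligand of CXCR3, had an interaction of -3.53 ± 0.56 (adjusted p = 0.017), but only -0.68 on its other probe set.

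Cd80, a ligand of CD28 and CTLA-4 on T cells, read 53.8, 111 and 122 before and 1099, 1948 and 2086 after treatment in WT. It read 67.2, 70.8 and 71.2 before and 179, 107 and 194 after treatment in aly. The interaction was -2.96 ± 0.55 (-4.13 to -1.80, adjusted p = 0.046), with its 3 other probe sets at -1.04 to -0.10. Il2ra, the high-affinity chain of the interleukin 2 receptor, was at 1.3, 1.0 and 8.7 before and 1019, 1080 and 1498 after treatment in WT, and at 19.7, 0.9 and 23.2 before and 235, 154 and 144 after treatment in aly. Treated aly arrays lay between the untreated arrays and treated WT. Il2ra rose in both genotypes, by 5.95 ± 0.39 and 2.73 ± 0.39 (adjusted p = 0.005 in aly), and the interaction was -3.23 ± 0.56 (adjusted p = 0.036). The other Il2ra probe set, a dimmer one, gave 3.56 in WT, 2.04 in aly and an interaction of -1.52. On the probe set used, its untreated levels were near or below the 16 added before taking logarithms, which sets the size of these changes. Fas, a death receptor, was alike, with 643.6, 657 and 1141 in treated WT, 83.3, 71.7 and 92.7 in treated aly and 2.4 to 24.3 in the 6 untreated samples. Its interaction was -2.96 ± 0.56 (adjusted p = 0.046), and its rise in aly was not called without treated aly replicate 1 (adjusted p = 0.062), a fit that called 0.366% of genes as rises in aly.

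The other called genes covered several functions. Prdm1, a repressor of transcription in plasma cells and DCs, had an interaction of -3.92 ± 0.74 (adjusted p = 0.046), with levels of 396 to 682 in treated WT and 8.5 to 106 in treated aly. Prdm1 also marks plasma cells, whose 5 measured markers summed to 1840 to 3100 over all arrays. Pml, the scaffold of nuclear bodies, had -3.32 ± 0.61, and Znfx1, an RNA helicase of antiviral defence, had -3.33 ± 0.55. Pvr, a ligand of the receptors DNAM-1 and TIGIT, had -3.89 ± 0.66, although its 5 other probe sets ranged from -2.79 to 0.16. Htra1, a secreted protease, had -3.92 ± 0.57, and Pla1a, a phospholipase, -3.81 ± 0.70. Myh10, a non-muscle myosin, had -3.83 ± 0.55 on a dim probe set but -0.05 on its other one. The remaining 6 were Vsig10 at -4.06, Slfn1 at -3.30, Nudt17 at -2.75, Plscr1 at -2.73, Arhgap28 at -2.66 and Gucd1 at -2.57. Of the 23, 12 had an adjusted p between 0.045 and 0.05, and another 14 genes lay between 0.05 and 0.10. Of the 23 genes 13 had further probe sets that passed the filter, 23 probe sets in all. Their interaction was below 0 on 22 of them, but closer to 0 on all 23 than on the probe set used, with a median of -1.40.

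Promoter windows, the 250 bases before the start of transcription (RefSeq, build GRCm38.p6), were found for 19 of the 23 genes. They are printed for 4 of them as examples that hold a match to the letters below, although all 19 genes responded less in aly. Capitals mark matches on either strand to GGGNNNNNCC, a loose form of the NF-kB site, in Ccl22, Il2ra and Fas, and to GAAANNGAAA, the core of the interferon-stimulated response element, in Gbp2. The windows lie at chr8:94745434-94745683 (plus strand), chr2:11642542-11642791 (plus strand), chr19:34290409-34290658 (plus strand) and chr3:142620413-142620662 (plus strand).
Ccl22: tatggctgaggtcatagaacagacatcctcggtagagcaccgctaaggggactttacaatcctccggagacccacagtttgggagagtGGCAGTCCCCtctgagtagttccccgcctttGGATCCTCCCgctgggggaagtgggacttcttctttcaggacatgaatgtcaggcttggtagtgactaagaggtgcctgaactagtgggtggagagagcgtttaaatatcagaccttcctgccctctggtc
Il2ra: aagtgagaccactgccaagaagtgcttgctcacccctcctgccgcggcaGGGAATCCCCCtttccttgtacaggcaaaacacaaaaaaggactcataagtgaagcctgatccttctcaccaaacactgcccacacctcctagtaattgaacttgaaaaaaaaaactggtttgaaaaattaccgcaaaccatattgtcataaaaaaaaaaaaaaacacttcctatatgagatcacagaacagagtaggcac
Fas: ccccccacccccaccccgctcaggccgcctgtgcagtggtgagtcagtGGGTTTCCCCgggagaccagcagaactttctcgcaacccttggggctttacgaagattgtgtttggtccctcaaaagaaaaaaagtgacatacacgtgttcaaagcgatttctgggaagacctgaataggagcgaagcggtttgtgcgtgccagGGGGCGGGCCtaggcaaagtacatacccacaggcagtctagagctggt
Gbp2: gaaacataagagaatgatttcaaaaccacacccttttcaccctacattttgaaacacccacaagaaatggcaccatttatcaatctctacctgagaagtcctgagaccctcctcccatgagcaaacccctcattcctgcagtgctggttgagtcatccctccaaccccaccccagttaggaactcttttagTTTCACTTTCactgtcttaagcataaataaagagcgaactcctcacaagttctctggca
At least 1 match to the NF-kB letters was found in 16 of the 19 genes (84.2%), against 63.4% of 12034 tested genes with a window. The letters of the response element were found in 1 of 19 (5.26%), against 3.2%. The windows of Prnp, the gene with the lowest interaction, and of Myh10 held no match to either. In Il2ra the 2 matches overlap, shifted by 1 base. A match describes the letters of the window and is not a bound site.

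The 23 calls depended on single arrays. Leaving out untreated WT replicates 1, 2 and 3 gave 8, 1 and 9 calls, and untreated aly replicates 1 to 3 gave 7, 9 and 7. Without treated WT replicates 1 to 3 there were 7, 12 and 5, and without treated aly replicates 2 and 3 there were 10 and 16. All 23 estimates stayed below 0 in each of 25 alternative settings. Read in replicate 1 of each group alone their median was -3.50, and in replicates 2 and 3 it was -3.42. These same arrays chose the 23 by their interaction, so neither result tests how stable the estimates are. The 23 were among the genes called with array weights and with the Actb covariate.

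**Figure D3:**
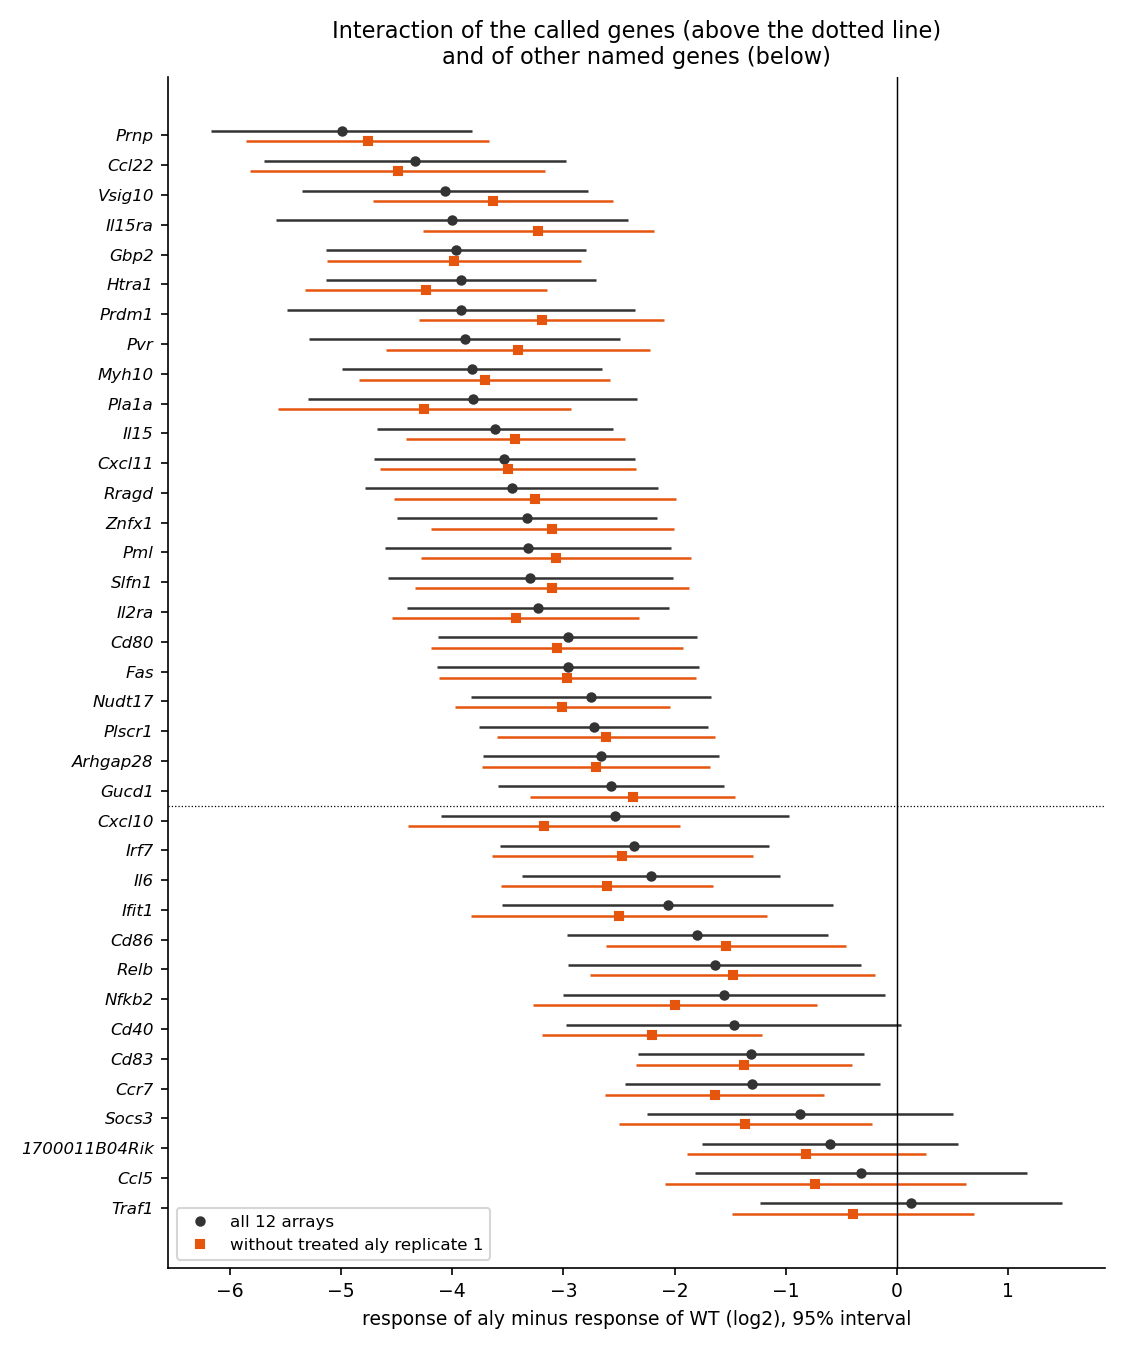
Interaction on the log2 scale (horizontal axis, below 0 for a smaller rise in aly) with its 95% interval for the 23 called genes (above the dotted line) and 14 other named genes (below), from all 12 arrays (black circles) and without treated aly replicate 1 (orange squares). Intervals of the 23 lie wholly below 0 in both fits, whereas those of Ccl5, Traf1 and 1700011B04Rik cover 0 in both.

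Responses as a whole were smaller in aly. To choose responding genes without favouring a genotype, the mean of both genotypes' responses was tested. It was called for 1830 genes (12.2%), with 805 rises (5.36%) and 1025 falls (6.82%), of which 706 and 837 were of at least 1 log2 unit. The 706 rises had a median of 2.17 in WT and 1.15 in aly (0.91 without treated aly replicate 1), and 622 of them (88.1%) were smaller in aly. Their median interaction was -1.08 (-1.32 without that array), against 0.04 over all genes, of which 47.8% were below 0. Of these rises 22 were called smaller in aly and 422 had an interval that covers 0. For the 837 falls the median was -1.71 in WT and -1.13 in aly (-0.66 in the smaller fit), and the median interaction 0.63 (1.09). It was 0.12 in replicate 1 alone and 0.88 in replicates 2 and 3. With responding genes chosen again in each fit it was 0.21 without treated aly replicate 2 and 0.11 without treated aly replicate 3, so its size rests on single arrays. Although 698 of the falls (83.4%) were smaller in aly, 0 were called smaller by limma (11 without the array).

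Interferon-stimulated genes, the products of antiviral defence, had the highest median response in WT of the 19 gene lists. Of 33 measured, 28 were called as rises in WT (4.95% of all genes tested). In aly 6 were (0.453%), namely Ifit1, Oas2, Oasl1, Oasl2, Irf7 and Herc6. Genes not called there could have larger estimates, such as Oas3 at 3.55 against 1.95 for Irf7. The median response of the 33 was 3.39 in WT and 1.67 in aly (1.17 without treated aly replicate 1). The interaction was below 0 in 30 of 33 (33 of 33 without the array), and 1 was called lower, Gbp2 (0.153% of all genes). Without the array 9 were (0.639%). Irf7, the regulator that amplifies type I interferon, read 6058 to 9217 in treated WT and 1081 to 2127 in treated aly, with no overlap, and 269 to 666 in all untreated samples. Its interaction of -2.36 ± 0.57 (-3.57 to -1.15) was not called (adjusted p = 0.19). The GTPase gene Iigp1 had the lowest estimate of the list without treated aly replicate 1, -4.97 ± 0.67 (adjusted p = 0.0039), against -4.16 ± 0.88 with it (adjusted p = 0.093). With the poly-A control split as a block, and all arrays, Iigp1 was called (adjusted p = 0.0221). Iigp1 read 4675 on treated aly replicate 1 and 1046 and 689 on the other treated aly arrays. Its other probe set gave -3.10 with all arrays. At the other end Xaf1, a partner of apoptosis inhibitors, had an interaction of 0.02 ± 0.71 (-1.50 to 1.53), and -0.70 without the array.

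Of 24 maturation and costimulation genes 20 were called as rises in WT (4.95% of all genes). In aly 4 were (0.453%), namely Ccr7, Socs2, Il2ra and Ramp3. Fscn1, not called there, had an estimate of 2.78 against 2.56 for Socs2. The median responses of the list were 2.75 in WT and 1.04 in aly, and 20 of 24 interactions were below 0. Called lower were 4, Cd80, Il2ra, Il15 and Il15ra (0.153% of all genes), and without treated aly replicate 1 also Cd40, Cd200, Stat4 and Socs2 (8 in all, against 0.639%). Cd40, the receptor targeted by the antibody, read 9132, 6093 and 10197 in treated WT and 12520, 2924 and 2493 in treated aly. The high value was treated aly replicate 1, so the groups overlapped only through it. Its interaction was -1.47 ± 0.71 (-2.98 to 0.04, adjusted p = 0.64) with that array and -2.20 ± 0.47 (-3.19 to -1.21, adjusted p = 0.04) without it. Its 2 other probe sets gave -3.03 and -1.14 with all arrays. Cd86, the second ligand of CD28, read 4042 to 6725 in treated WT and 1116 to 2045 in treated aly, which lay within the range of untreated samples. Its interaction of -1.80 ± 0.55 (-2.97 to -0.62) was not called (adjusted p = 0.35), and its other probe set gave -2.60.

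**Figure D4:**
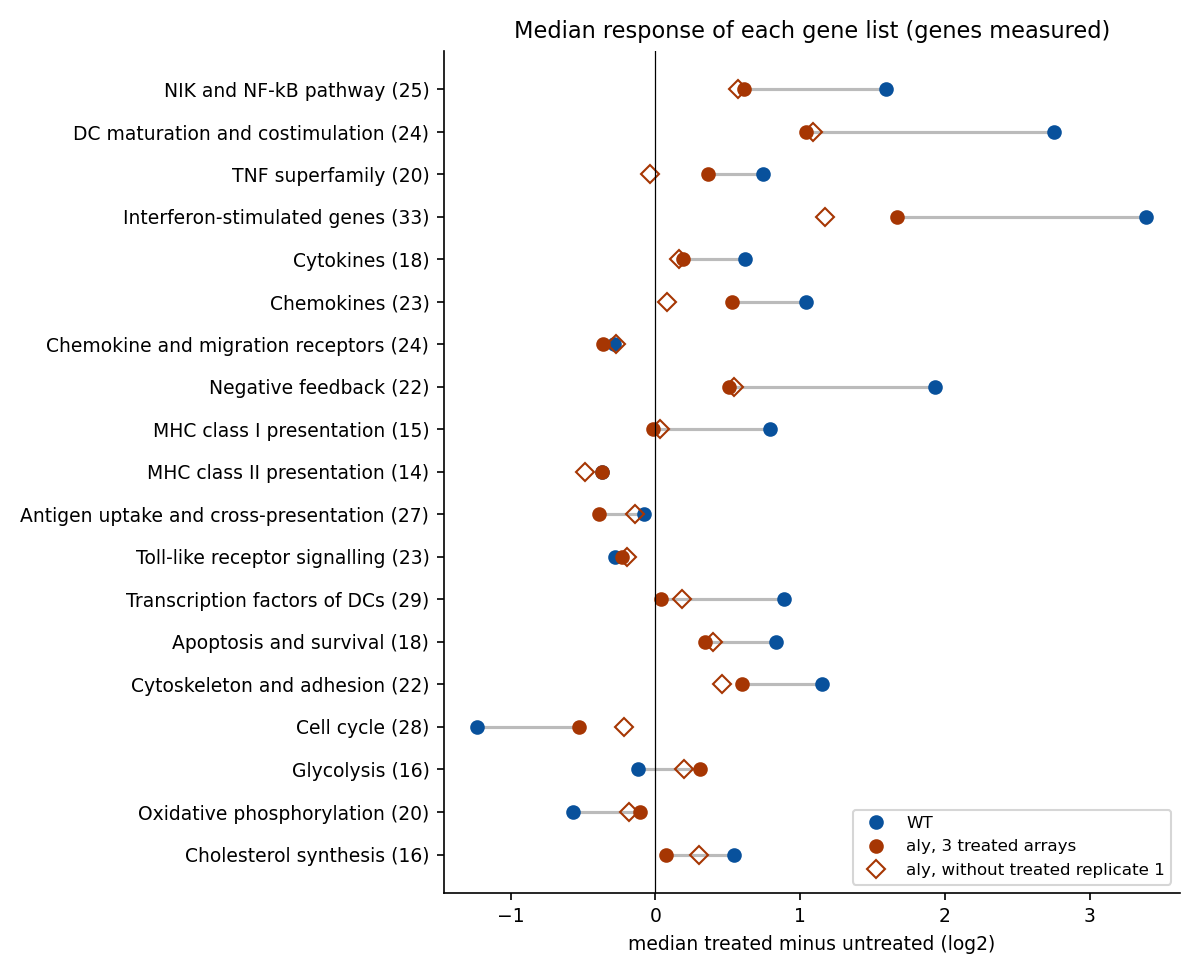
Median log2 change with treatment over the measured genes of 19 lists (number in brackets) in WT (blue), in aly (red) and in aly without treated replicate 1 (open diamonds). The largest distances between WT and aly are those of interferon-stimulated genes (3.39 and 1.67) and maturation genes (2.75 and 1.04). The negative feedback list holds Dusp9 in place of the listed Dusp4, and the glycolysis list Pigq in place of Gpi1.

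In the NIK and NF-kB pathway 13 of 25 genes were called as rises in WT (4.95% of all genes) and 1 in aly (0.453%). The median responses were 1.59 in WT and 0.61 in aly. The interaction was below 0 in 22 of 25, and by limma 0 were called (1 without treated aly replicate 1, Cd40). Nfkb2, the precursor that NIK signalling processes, read 3273, 1735 and 2916 in treated WT and 2240, 1017 and 776 in treated aly, so that the groups overlapped. Its interaction was -1.55 ± 0.68 (adjusted p = 0.6). Relb, its partner, read 4236 to 6861 in treated WT and 1085 to 2083 in treated aly without overlap, with an interaction of -1.64 ± 0.62 (adjusted p = 0.5). Map3k14 itself had -1.18 ± 0.71 (-2.69 to 0.33, adjusted p = 0.71), and -0.51 without the array. A transcript level says nothing of the mutation.

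Further lists are read against the same shares of all genes. These are 4.95% called as rises in WT, 0.453% in aly and 0.153% called in the interaction. Of 18 cytokines 5 were called as rises in WT and 1 in aly, and Il15 was called in the interaction. Il6, an inflammatory cytokine, read 301 to 440 in treated WT and 26.4 to 82.4 in treated aly, with an interaction of -2.21 ± 0.55 (adjusted p = 0.19) and of -2.61 ± 0.45 without treated aly replicate 1 (adjusted p = 0.018). Ifng read 641 to 6302 in treated WT and 149 to 1286 in treated aly, and its interaction of -2.83 ± 1.12 was not called (adjusted p = 0.53). Among cells other than DCs that make Ifng, natural killer markers (7 measured) summed to 338 to 2540 in treated WT and 326 to 971 in treated aly. T cell markers (7 measured) summed to 1940 to 4390 and 591 to 968, mostly Il7r, which DCs can express, while Cd3g stayed at a mean of 26.6 or less in all groups. Their part in Ifng and Il2ra was not tested. Of 23 chemokines 8 were called as rises in WT and 2 in aly, Ccl5 and Cxcl10. The interaction was called for Ccl22 and Cxcl11. Among 22 negative feedback genes 14 were called as rises in WT and 2 in aly, with median responses of 1.93 and 0.51. By limma 0 were called in the interaction (1 without the array, Socs2). The 22 include Dusp9, read in place of the listed Dusp4, and Dusp9 was not called in either genotype.

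MHC class I genes had a median of 0.79 in WT and -0.02 in aly, with 13 of 15 interactions below 0 and 0 called by limma with or without the array. The transactivator Nlrc5 was lowest in p, at -2.24 ± 0.56 (-3.43 to -1.05, adjusted p = 0.2). MHC class II genes, antigen uptake genes and Toll-like receptor genes had median interactions of 0.31, -0.32 and -0.04, and 0 members called with all arrays. Cell cycle genes had medians of -1.23 in WT and -0.53 in aly, with 10 of 28 called as falls in WT (4.75% of genes tested) and 0 in aly (0.0333%). Markers of CD8 alpha positive DCs moved likewise, with 9 of 14 called as falls in WT and 0 in aly, medians of -2.96 and -1.50, and 0 called in the interaction. The sum of these markers was 17400 to 30500 in untreated and 5430 to 11800 in treated WT, and 27300 to 29400 and 7190 to 18800 in aly.

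In aly DCs 73 genes were called after treatment (0.486%), against 1458 in WT (9.71%). Of these 73, 71 were called in both genotypes in the same direction, 68 as rises and 3 as falls. In the interaction 2 of the 71 were called (13 without treated aly replicate 1). Its 95% interval covered 0 for 43 and lay wholly below 0 for 28. It lay within -1 to 1 for 0 of the 71, since it reached a median of 1.29 to either side of the estimate over all genes. An equal response was therefore shown for none of them.

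A response largely kept was that of 1700011B04Rik, an uncharacterised transcript. It stood at 15.8 or less on all 6 untreated arrays, and after treatment at 1361, 1568 and 1380 in WT and at 1163, 596 and 915 in aly. Treated arrays of both genotypes stood far above untreated ones, with all treated aly arrays below all treated WT arrays. The share of the WT log2 change kept in aly was 89.9% (95% interval 73 to 110), and the interaction was -0.60 ± 0.54 (-1.75 to 0.55, adjusted p = 0.83). Its untreated levels were below the 16 added before taking logarithms, which affects the size of both changes and of the share kept.

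Ccr7, the receptor that guides mature DCs to T cell zones, read 447, 362 and 406 before and 8070, 13305 and 12925 after treatment in WT. In aly it read 324, 261 and 242 before and 5011, 2052 and 2941 after treatment. It rose in both genotypes, by 4.74 ± 0.38 and 3.44 ± 0.38 (adjusted p = 0.00057 in aly), and treated aly arrays lay below treated WT arrays. The share kept was 72.6% (53.2 to 96.3). The interaction of -1.30 ± 0.54 (-2.44 to -0.15) was not called after adjustment (adjusted p = 0.57).

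Socs3, a feedback inhibitor of cytokine receptors, read 2373, 2451 and 2228 in treated WT and 2613, 651 and 1324 in treated aly. The interaction was -0.87 ± 0.65 (-2.25 to 0.51, adjusted p = 0.78), and -1.36 without the highest treated aly array, replicate 1. Cnn3, an actin-binding protein, kept 85.8% (62.3 to 116), although its 5 other probe sets had interactions of -2.92 to -0.12. Aldh1a2, which makes retinoic acid, read 2623 to 5334 in treated WT and 421, 2784 and 4034 in treated aly. The low value was replicate 1, and without it the interaction moved from -1.31 to -0.33 ± 0.55 (-1.50 to 0.84).

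Ccl5, a chemokine for T cells and monocytes, read 11986 to 15129 in treated WT and 14542, 5780 and 6646 in treated aly. Its interaction was -0.32 ± 0.70 (-1.81 to 1.17, adjusted p = 0.94), and -0.73 without treated aly replicate 1. Traf1, an adaptor of TNF receptors and a target of NF-kB, had 0.13 ± 0.64 (-1.24 to 1.49, adjusted p = 0.98). Its other probe set gave -0.62, and its rise in aly was not called without treated aly replicate 1 (adjusted p = 0.094). The acute phase gene Saa3 rose by 5.02 ± 0.83 in aly and 4.18 ± 0.83 in WT, with an interaction of 0.84 ± 1.18 that was -0.06 without that array. For Ccl17, a ligand of CCR4, which was not called in aly, the interaction moved from 0.07 to -0.94. Ccl17 read 1407 on treated aly replicate 1 and at most 216 on the other treated aly arrays.

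**Figure D5:**
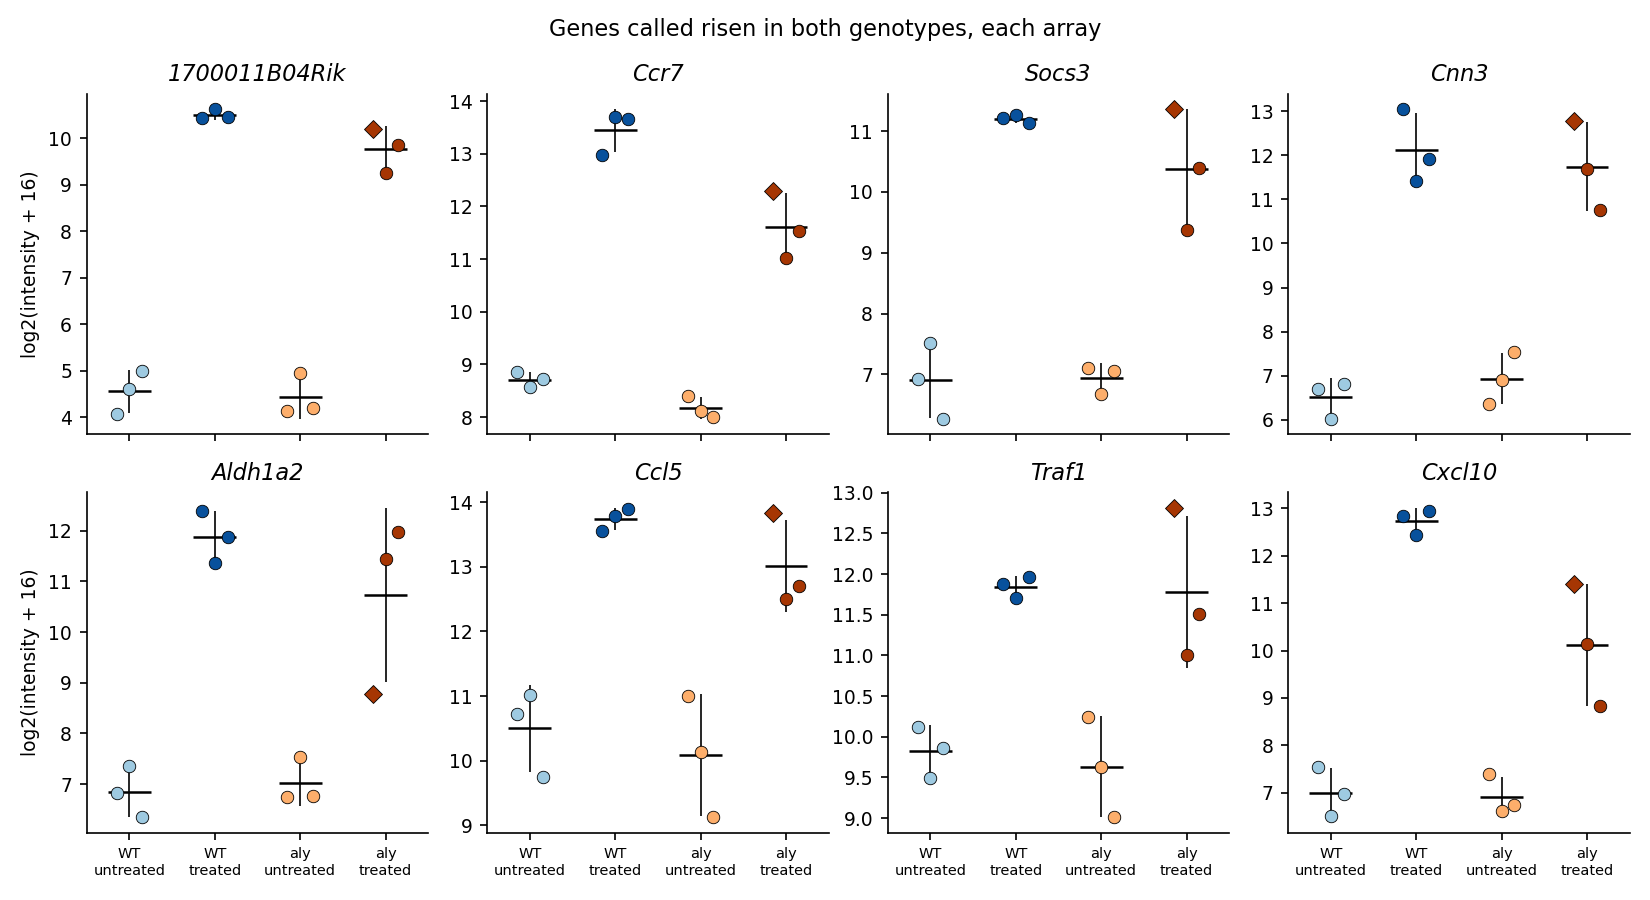
Log2(intensity + 16) on each array for 8 genes called as rises in both genotypes, by group (horizontal axis). Points are arrays, bars the mean and lines 1 SD (n = 3), and the diamond is treated aly replicate 1. Both treated groups lie above both untreated groups in each panel, and the diamond is the lowest treated aly array for Aldh1a2 and the highest for the other 7 genes.

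Further genes rose in both genotypes but were not called in the interaction by the main fit. Of those below, Oasl1, Sphk1, Il1rn and Ramp3 had estimates within the range of the 23 called genes (-5.00 to -2.57). Cxcl10, a ligand of CXCR3, read 7331, 5532 and 7926 in treated WT and 2679, 1115 and 437 in treated aly, and 55.9% of the WT log2 change was kept (35.4 to 80.6). Its interaction was -2.54 ± 0.74 (adjusted p = 0.3), and it was called without treated aly replicate 1 (-3.17 ± 0.58, adjusted p = 0.021). Oasl1, an antiviral regulator, moved likewise from -2.58 ± 0.79 (adjusted p = 0.34) to -3.22 ± 0.65 (adjusted p = 0.032). Sphk1, a lipid kinase, had -3.32 ± 0.64 (adjusted p = 0.051) and -3.53 ± 0.62 without the array (adjusted p = 0.018). Il1rn, the antagonist of interleukin 1, had -2.95 ± 0.59 (adjusted p = 0.066) and -2.67 ± 0.55 (adjusted p = 0.035). With the poly-A control split as a block both were called over all arrays, Sphk1 at an adjusted p of 0.0355 and Il1rn at 0.0498. Their other probe sets gave -0.73 for Sphk1 and -3.34 and -1.62 for Il1rn. Ramp3, a partner of the calcitonin receptor, was not called in either fit. It had -3.005 over all arrays (adjusted p = 0.24), and -3.33 ± 0.77 without treated aly replicate 1 (adjusted p = 0.058).

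Of the 17 genes called higher in the interaction without treated aly replicate 1, 16 were called as falls in WT in that fit (11.1% of genes tested). The interaction subtracts the WT response on the same arrays, so this count gives it no separate support. The 17 interactions ranged from 2.03 to 2.92. Adgrl3, an adhesion receptor, read 299 to 403 before and 5.3 to 20.1 after treatment in WT, and 57.1 to 96.0 before and 14.7 to 27.5 after treatment in aly. Treated groups overlapped, and untreated aly lay below untreated WT by 2.10 log2 units (adjusted p = 0.024). The interaction was 2.45 ± 0.50 with all arrays (adjusted p = 0.067) and 2.56 ± 0.47 without the array (adjusted p = 0.021), and -0.20 to 2.00 on its 5 other probe sets with all arrays. Glo1, an enzyme that detoxifies methylglyoxal, read 96.5 to 188 in treated WT and 380 to 871 in treated aly, with 310 to 968 in all untreated samples. Its interaction was 2.58 ± 0.62 (adjusted p = 0.18), and 2.86 ± 0.58 without the array (adjusted p = 0.032). Its 3 dimmer probe sets gave 0.47 to 1.12 with all arrays. The replication genes Mcm4 and Rad51ap1 had 2.34 ± 0.49 and 2.03 ± 0.42 without the array, and 1.60 and 1.81 with it. Neither was seen at that size elsewhere: the other Mcm4 probe set gave 0.03 with all arrays, and the 3 other Rad51ap1 probe sets, all dimmer, gave -0.56 to 0.99.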

How the data were processed

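RNA of sorted splenic DCs, amplified in 2 rounds per the labels' protocols, was read on 12 whole-genome arrays. The deposited table gives a linear intensity for each of 45101 probe sets and array, and the authors had scaled every array to a 2% trimmed mean of 150.001, as read from the values. Software and any background correction: not given in the sources used here. A single gene symbol belonged to 34945 probe sets, several to 932 and none to 9160, and 64 were controls. The filter asked for 3 or more arrays with a value over that array's 40th percentile (27443 single-symbol probe sets passed), and each gene was read on the one with the highest mean log2 value, which left 15019 genes. The highest linear mean was run first. The log2 mean replaced it after those results had been seen, because treated aly replicate 1 can decide a linear mean. It changes the probe set of 238 genes.

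Values were taken as log2(value + 16). An offset of this size understates changes of genes with low values. One model with a mean for each group covered all arrays (limma 3.58.1 under R 4.3.3, files read by data.table at version 1.17.8), with 8 residual and 8.04 prior degrees of freedom, two-sided tests and Benjamini-Hochberg adjustment over all genes. The median standard error was 0.61 for the interaction. Intervals are 95% and unadjusted, and the interval of a share kept in aly is Fieller's. The precision is limited by 3 arrays a group, and all groups share the same spread estimate for a gene. Without treated aly replicate 1 the median standard error of the WT response was 0.355, against 0.432 with it. Calls in WT then numbered 2843, against 1458, although that array is not part of the WT response. Named genes are the most extreme and the least changed of each call set, list members with the smallest p or interaction, and a fixed set of NIK-related genes. Genes and lists were chosen with earlier results of these data known. All 23 called genes are named to account for each. Genes named beside a list count (Oas2, Oasl2, Herc6, Cd200, Socs2, Itgax, Zbtb46, Flt3, Il7r and Cd3g) were picked after their values were seen. Arrays were not paired by replicate number. Alternatives were other offsets, filters, scalings, blocks, a quality covariate, array weights, another probe set rule and leaving out each array. Promoter windows came from RefSeq (GRCm38.p6).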

Additional observations from a re-analysis of the deposited data

Results flagged for a closer look

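For 7 of the 23 genes called in the interaction the estimated responses of the genotypes had opposite signs, above 0 in WT and below 0 in aly, and the interaction itself was the test of that difference (limma, n = 3 arrays a group). They were Prnp (-5.00, from 3.79 in WT and -1.20 in aly), Vsig10 (-4.06, from 3.12 and -0.94), Prdm1 (-3.92, from 3.05 and -0.87), Myh10 (-3.83, from 3.11 and -0.71), Il15 (-3.61, from 3.28 and -0.34), Znfx1 (-3.33, from 3.22 and -0.11) and Pml (-3.32, from 3.09 and -0.23). By limma 0 of the 7 falls in aly were called, so the opposite sign in aly rests on estimates alone. It also depends on the probe set. On other probe sets the aly estimate was above 0 for Prnp (0.498) and Pml (0.954 and 0.463). The other Myh10 probe set, a dim one, gave 0.029 in WT and -0.025 in aly. Without treated aly replicate 1 the aly estimates of Znfx1 and Pml were 0.12 and 0.03, above 0.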

How the results depend on the processing

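All 23 genes called in the interaction kept an estimate below 0 in each of 25 alternative settings, and were called in 9 to 25 of them. These settings share arrays with the fit that chose the genes, so the kept sign is no separate support. When every probe set was tested on its own, 17 genes were called, of which 11 were among the 23. The count of called genes was 1 with an offset of 1, 55 with an offset of 64 (3 higher in aly), 12 with no filter, 9 with quantile normalization, 76 with the Actb ratio as a covariate (9 higher), 360 with array weights (103 higher) and 5 in replicates 2 and 3 only. It was 1 to 113 on leaving out each array in turn. With the replicate number as a block 30 genes were called, 22 of them among the 23, and 31 with the spike-in split as a block. The replicate block called Iigp1, Sphk1, Il1rn and Gm4951 among the named genes and lost Gucd1. Deviations correlated above 0.1 in 8 of 18 same-number pairs (-0.03 to 0.30), including all 3 pairs of untreated WT with untreated aly, and 9 of 12 arrays were closest to one of their own number, a hint from the data only. The count for treatment in WT (1458) was 898 with an offset of 1, 2793 with the covariate, 3370 with array weights and 587 to 2843 on leaving out an array. The share of rises in it was 51% as deposited and 67.1% with median centring. The count in aly (73) was 11 with an offset of 1, 120 with the spike-in block, 164 with array weights, 28 in replicates 2 and 3 only and 13 to 102 on leaving out an array. The mean response (1830) gave 1045, 2923 and 976 with an offset of 1, array weights and replicates 2 and 3 only, and 1042 to 2377 on leaving out an array. Its share of rises was 44% and, with median centring, 60.6%. The median interaction of the rises was -1.42 with array weights and -1.35 to -0.81 on leaving out an array, and that of the falls (0.63) was 0.11 to 1.15 on leaving out an array, the extremes being treated aly replicates 3 and 1. Reading each gene on the probe set with the highest linear mean, an alternative added after seeing the data, gave 23 calls, the same genes, and 1437 in WT. The causes were not tested. Of 153 named genes not called with all arrays, 57 were called in some setting.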
